A study of Mus musculus with 14 samples.

Results

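E proteins are basic helix-loop-helix transcription factors, and Id proteins are their inhibitors. The genes described here are 2 of the E protein genes, Tcf12 (which encodes HEB) and Tcf4 (which encodes E2-2), and 3 of the Id genes, Id1, Id2 and Id3. They were taken by symbol from the platform annotation, as the probe sets that name one of these genes alone, and they make up 5 of 15803 measured genes and 53 of the 179496 probe sets with 1 gene. The study measured RNA of 14 mouse thymic lymphomas on exon arrays, which probe the exons of a gene separately; 7 came from Vav-SB mice and 7 from CD4-SB mice. Both are models of T-cell acute lymphoblastic leukaemia in which the Sleeping Beauty transposon jumps in the genome, so both groups carry transposition. Vav and Cd4 regulatory elements are commonly used to drive expression in blood cells at large and in T cells from the stage that carries CD4. The sources used here do not give the element used in these animals, their further alleles, any treatment, or their age and sex. The titles of the 7 Vav-SB tumours start with 7 numbers and those of the 7 CD4-SB tumours with 4. What this number stands for is not stated, nor whether each tumour is a separate animal, and p-values cover only the spread among these tumours.

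E proteins bind short DNA sites called E boxes, as dimers with each other or with other helix-loop-helix factors. Id proteins have the dimerisation domain without the basic, DNA-binding part, so an E protein held by an Id protein cannot bind its site. In thymocytes E proteins drive the pre-T-cell receptor and recombinase genes and hold cells at the checkpoints of receptor testing. Id3 is induced by signals of the T-cell receptor, Id2 is needed for natural killer cells, innate lymphoid cells and some dendritic cells, and Tcf4 is needed for plasmacytoid dendritic cells.

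Matches to the E box were sought in the stretches before the starts of genes. For Tcf4 and Id1 no such stretch was available here. The stretches of Tcf12, Id2 and Id3 are shown. Each is the 250 bases before an annotated start from RefSeq, build GRCm38.p6, written 5′ to 3′ on the strand of the gene, with every match to the E box CANNTG in capitals. The Tcf12 stretch is chr9:72111820-72112069 on the minus strand, the Id2 stretch chr12:25096093-25096342 on the minus strand and the Id3 stretch chr4:136143572-136143821 on the plus strand.
Tcf12: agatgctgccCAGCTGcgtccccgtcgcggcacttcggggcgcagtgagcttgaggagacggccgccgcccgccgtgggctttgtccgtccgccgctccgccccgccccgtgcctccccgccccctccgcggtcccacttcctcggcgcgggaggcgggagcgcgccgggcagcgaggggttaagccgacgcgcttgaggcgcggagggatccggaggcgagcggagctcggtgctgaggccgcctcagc
Id2: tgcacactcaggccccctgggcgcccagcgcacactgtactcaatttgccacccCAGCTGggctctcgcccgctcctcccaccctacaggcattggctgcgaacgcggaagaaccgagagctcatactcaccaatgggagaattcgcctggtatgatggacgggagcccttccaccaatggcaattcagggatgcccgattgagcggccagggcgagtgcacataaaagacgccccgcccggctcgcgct
Id3: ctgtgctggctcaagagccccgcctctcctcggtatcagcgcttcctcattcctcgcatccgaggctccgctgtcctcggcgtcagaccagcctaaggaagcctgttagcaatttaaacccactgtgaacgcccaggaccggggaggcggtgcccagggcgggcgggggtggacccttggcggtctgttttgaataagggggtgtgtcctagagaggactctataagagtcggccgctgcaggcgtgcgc
The Tcf12 and Id2 stretches each held 1 match, and both matches were CAGCTG. The Id3 stretch held 0. The motif CANNTG reads the same way on both strands and includes CAGCTG. Of 32851 such stretches of 250 bases, 66.2% held CANNTG at least once and 13.0% held CAGCTG. A second Tcf12 start, with its stretch at chr9:72111202-72111451, had 1 match of another form (CAAGTG), and the remaining one, at chr9:71896097-71896346, had 0. A match is a description of letters, and the arrays did not measure binding.

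Values of genes are means over the gene's probe sets as the authors normalised them. They were read as log2 values, so a difference of 1 is a doubling, and the median level of all genes was 7.22. The medians of the arrays lay between 7.46 and 7.5, so a change in total RNA cannot be seen. Differences are Vav-SB minus CD4-SB and were tested with limma over all 15803 genes with Benjamini-Hochberg adjustment. A gene is said to have risen or fallen in Vav-SB where its adjusted p was under 0.05. By this rule 7.28% of all genes rose and 7.18% fell. In bulk tumours fewer cells of a type and less RNA per cell cannot be told apart. T-cell markers were well expressed in both models: the mean of the 7 measured ones ran from 10.71 to 11.14 in Vav-SB and from 9.78 to 10.75 in CD4-SB. That mean was 0.49 higher in Vav-SB (exact permutation test over 3432 splits, two-sided, adjusted p = 0.00787), and of the 7 genes 2 rose, Cd3g by 0.39 and Cd2 by 0.76, and 0 fell. Cd2 lost its call under 15 of 23 alternatives. Markers of myeloid, dendritic and B cells were lower on average in Vav-SB. Of these, 8 of 12 myeloid genes, 2 of 8 dendritic genes and 1 of 7 B-cell genes fell and 0 rose, where 7.18% of all genes fell. Of 11 stromal genes 1 rose and 2 fell, and their mean differed by -0.29 (exact permutation test over 3432 splits, two-sided, adjusted p = 0.0937). The mean of 12 myeloid genes ran from 7.93 to 8.67 in Vav-SB and from 8.68 to 9.54 in CD4-SB, that of 8 dendritic genes from 7.33 to 8.22 in Vav-SB and from 7.59 to 9.30 in CD4-SB, and that of 7 B-cell genes from 7.0 to 7.74 in Vav-SB and from 7.41 to 9.47 in CD4-SB (exact permutation test over 3432 splits, two-sided, adjusted p = 0.00524, 0.0288 and 0.0126).

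Of the 5 genes 1 rose in Vav-SB, 0 fell and 4 did not pass, where 14.5% of all genes passed, 7.28% higher and 7.18% lower in Vav-SB. The gene that rose was Tcf12, which encodes HEB, the E protein that acts beside E2A in developing thymocytes. It was at 10.79 in the lowest, 11.24 in the median and 11.33 in the highest Vav-SB tumour, against 9.21, 9.61 and 9.76 in CD4-SB tumours. The groups did not overlap, and the lowest Vav-SB value was 1.03 above the highest CD4-SB value. Among all genes 4.04% had groups without overlap, 2.51% with the Vav-SB tumours on top. The means were 11.12 ± 0.21 in Vav-SB and 9.51 ± 0.21 in CD4-SB (SD, n = 7 each), a 3.05-fold difference (limma, log2 difference 1.61, 95% interval 1.37 to 1.85, adjusted p = 6.57e-07). By p-value Tcf12 ranked 14 among 15803 genes, and by size of the difference 193. When the mean of 45 markers of other cells (myeloid, dendritic, plasmacytoid dendritic, B and stromal) entered the fit as a covariate, called the marker covariate from here on, the Tcf12 difference was 1.497 (limma, adjusted p = 0.000267). The 45 include Ccr9, which thymocytes also carry, and Pecam1, which rose in Vav-SB by 2.34 and 0.89. The covariate is therefore not a measure of other cells alone.

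**Figure D1:**
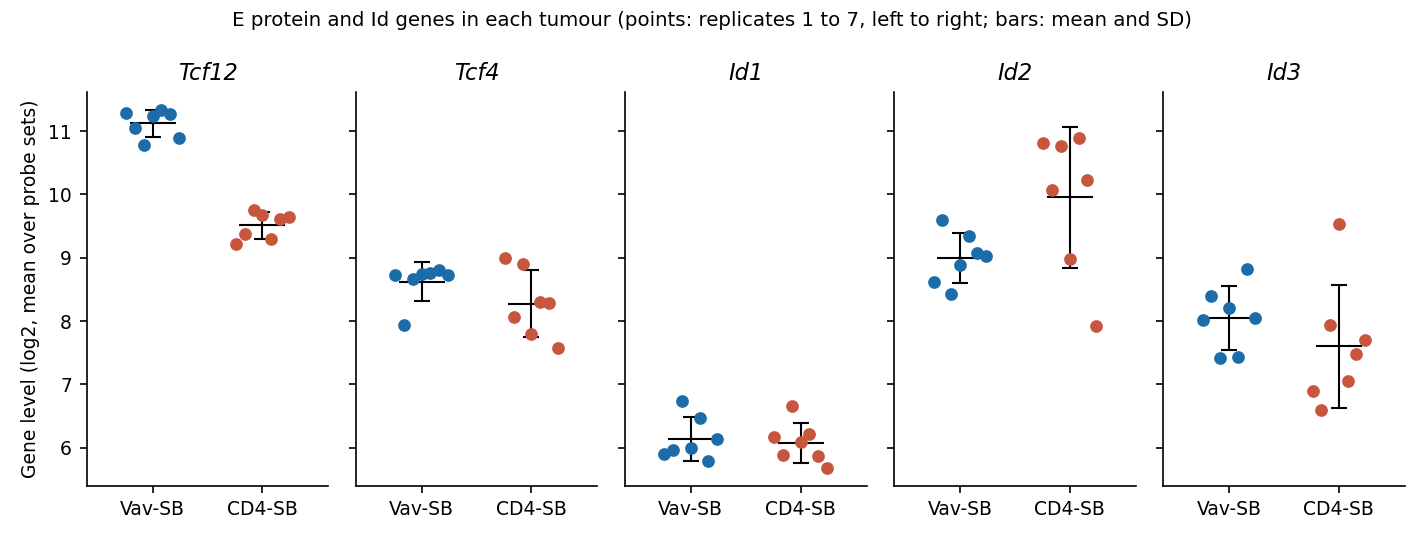
Level of each gene (log2, mean over its probe sets) in each tumour, with Vav-SB on the left and CD4-SB on the right of each panel. Points are replicates 1 to 7 from left to right, and bars are the mean and SD of 7 tumours. Tcf12 separates the models, Id2 and Id3 spread over 2.98 and 2.94 in CD4-SB, and Tcf4 and Id1 overlap.

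The Tcf12 difference was seen in each probe set of the gene. All 22 probe sets of Tcf12 were higher in Vav-SB and passed when each of the 194293 probe sets was tested by itself, where 8.45% passed, 4.57% of all probe sets higher and 3.88% lower in Vav-SB. In all 22 the groups did not overlap, as in 2.69% of all probe sets (1.75% with Vav-SB on top). The differences ran from 1.05 to 2.87. Probe sets with a higher level showed smaller differences (r = -0.82 across 22 probe sets of 1 gene, which share the tumours and the arrays). The 9 probe sets with a mean level above 11 differed by 1.05 to 1.64.

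One Tcf12 probe set stood apart. Probe set 4511176 was at 7.73 in the lowest, 8.25 in the median and 8.41 in the highest Vav-SB tumour, against 4.66, 5.22 and 6.11 in CD4-SB tumours. It was the dimmest probe set of the gene in CD4-SB, where its mean of 5.28 lay under the median level of all probe sets, 7.47. The data used here hold no background level or detection call, so how far its difference reflects a signal near background in CD4-SB was not tested. Its difference of 2.87 was 1.32 above that of the rest of the gene (limma's diffSplice, which sets a probe set against the other probe sets of its gene, adjusted p = 4e-12). Probe sets 5070994 and 5540850, both above 10.5 in each tumour, differed by 1.05 and 1.08, which was 0.58 and 0.56 below the rest (diffSplice, adjusted p = 0.022 and 0.0363). Leaving out 1 tumour at a time ended these calls in 4 and 8 of the 14 fits (adjusted p as high as 0.0773 and 0.0938), and the marker covariate ended both at offsets of -0.69 and -0.67 (adjusted p = 0.158 and 0.185). Over all 18 alternatives the 2 calls ended in 6 and 11 (adjusted p as high as 0.158 and 0.284). Probe set 4511176 passed in all 17 alternatives it was tested in, with an offset of 1.64 under the covariate. Over all genes diffSplice called 1.33% of 177027 probe sets, 0.670% toward Vav-SB and 0.661% toward CD4-SB. Where each probe set had a spread of its own, which called 1.77% of all probe sets, 4 Tcf12 probe sets passed, 2 above the rest and 2 below, among them these 3 (adjusted p = 0.00199, 0.012 and 0.00392). The positions of the probe sets were not used here, so which exon or start they report is not known.

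**Figure D2:**
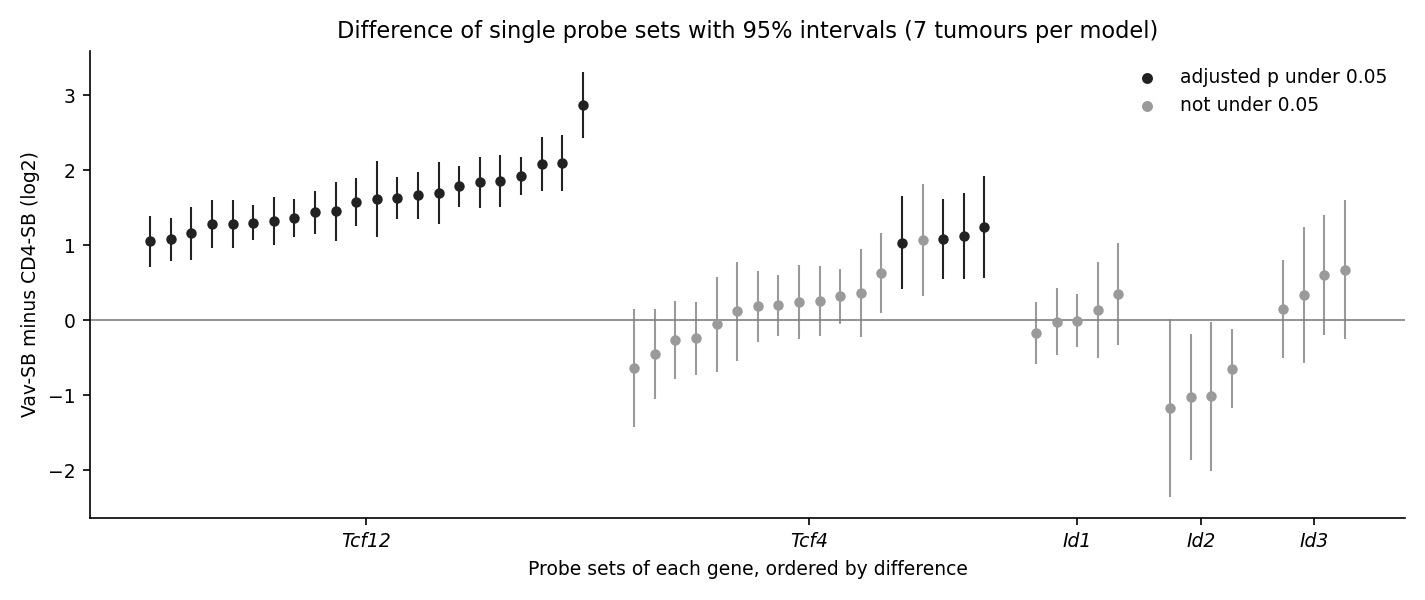
Difference of each of the 53 probe sets (log2, Vav-SB minus CD4-SB) with its 95% interval, grouped by gene and ordered by size. Black points passed an adjusted p of 0.05 over all probe sets and grey ones did not. All 22 Tcf12 probe sets lie above 1, 5 of 18 Tcf4 probe sets do, and all 4 Id2 probe sets lie below 0.

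Tcf4 as a whole did not pass, and the differences of its probe sets ran from -0.63 to 1.25. The gene was at 7.93 in the lowest, 8.73 in the median and 8.81 in the highest Vav-SB tumour, against 7.58, 8.29 and 8.99 in CD4-SB tumours. Vav-SB tumours other than replicate 2 lay between 8.67 and 8.81. In CD4-SB, replicates 1 and 3 (8.99 and 8.90) lay above every Vav-SB tumour and replicates 4 and 7 (7.80 and 7.58) below every one. The means were 8.62 ± 0.31 in Vav-SB and 8.28 ± 0.52 in CD4-SB (SD, n = 7 each), a difference of 0.35 (limma, 95% interval -0.11 to 0.80, adjusted p = 0.32). With the marker covariate the difference was 0.95 and passed (limma, adjusted p = 0.0468).

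Of 18 Tcf4 probe sets 13 were higher and 5 lower in Vav-SB, and 4 passed, all higher, while 6 had a 95% interval that left out 0. Probe set 5270629 had the largest difference. It was at 8.35 in the lowest, 9.17 in the median and 9.52 in the highest Vav-SB tumour, against 6.89, 7.90 and 9.15 in CD4-SB tumours, a difference of 1.25 (limma over all probe sets, adjusted p = 0.0257). CD4-SB replicates 4, 5 and 7, at 6.89, 7.09 and 7.13, lay farthest below the Vav-SB tumours, while CD4-SB replicates 1 to 3 lay within the Vav-SB range. Probe set 4886763 had the lowest difference. It was at 7.10 in the lowest, 8.53 in the median and 9.08 in the highest Vav-SB tumour, against 7.98, 9.03 and 10.33 in CD4-SB tumours, a difference of -0.63 (limma over all probe sets, adjusted p = 0.338). Its difference was 1.04 below the rest of the gene (diffSplice, adjusted p = 0.0461), a call that ended in 10 of the 14 fits that leave out 1 tumour (adjusted p as high as 0.152) and under the marker covariate (-0.52, adjusted p = 0.885). With a spread of its own per probe set, 5270629 and 4645660 stood above the rest of the gene (adjusted p = 0.0302 and 0.0457) and 4886763 and 4335610 below it (adjusted p = 0.0231 and 0.00324).

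The 5 Tcf4 probe sets with a difference above 1, chosen on their values, gave a mean per tumour that ran from 7.86 to 9.08 in Vav-SB and from 6.45 to 8.53 in CD4-SB. The mean of the other 13 ran from 7.96 to 8.87 in Vav-SB and from 7.80 to 9.31 in CD4-SB. In Vav-SB replicates 1 to 7 the 5 were at 9.08, 7.86, 8.71, 8.89, 8.83, 8.66 and 8.84, and the other 13 at 8.58, 7.96, 8.66, 8.69, 8.73, 8.87 and 8.69. In CD4-SB replicates 1 to 7 the 5 were at 8.53, 8.09, 7.82, 6.45, 7.43, 7.73 and 7.01, and the other 13 at 9.16, 8.06, 9.31, 8.31, 8.64, 8.51 and 7.80. CD4-SB replicates 3 and 4 showed the widest gaps between the sets. Of the 7 measured genes that mark plasmacytoid dendritic cells, a type rich in Tcf4, 1 rose (Ccr9, which thymocytes also carry) and 2 fell (Irf8 and Bst2). Of all genes 7.28% rose and 7.18% fell. The mean of the 7 ran from 7.60 to 8.35 in Vav-SB and from 7.19 to 8.21 in CD4-SB (exact permutation test, two-sided, adjusted p = 0.329). Siglech, the surface lectin that defines these cells, differed by -0.24 (limma, adjusted p = 0.195). The part of these cells in the Tcf4 values was not tested.

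Id2 was lower on average in Vav-SB but did not pass, and CD4-SB tumours differed widely in it. Id2 was at 8.43 in the lowest, 9.03 in the median and 9.59 in the highest Vav-SB tumour, against 7.92, 10.23 and 10.90 in CD4-SB tumours. In CD4-SB 5 tumours, at 10.07 to 10.90, lay above every Vav-SB tumour, replicate 4 (8.98) lay among the Vav-SB tumours and replicate 7 (7.92) below all of them. The means were 9.0 ± 0.40 in Vav-SB and 9.96 ± 1.12 in CD4-SB (SD, n = 7 each), a difference of -0.96 (limma, 95% interval -1.83 to -0.09, adjusted p = 0.136). The SD in CD4-SB was 2.8 times that in Vav-SB and larger than or equal to that of 97.8% of genes in CD4-SB. Without CD4-SB replicate 7 the difference was -1.30 and passed (limma, adjusted p = 0.00844). It also passed where each title number kept a single tumour, which dropped CD4-SB replicates 2, 6 and 7 (-1.37, limma, adjusted p = 0.0239).

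All 4 Id2 probe sets were lower in Vav-SB, by 0.64 to 1.17, and 0 of 4 passed over all probe sets, though 3 had 95% intervals below 0. The highest difference was that of probe set 4363530 (-0.64) and the lowest that of 4731791 (-1.17). The mean marker level of other cells was 8.87, 7.94, 8.76, 8.47, 8.61, 8.54 and 7.94 in CD4-SB replicates 1 to 7 and ran from 7.67 to 8.16 in Vav-SB. In CD4-SB replicates 1 to 7 Id2 was at 10.82, 10.07, 10.77, 8.98, 10.90, 10.23 and 7.92. With the marker covariate the Id2 difference was -0.13 ± 0.54 (SE) (limma, adjusted p = 0.918). The part of other cells in the Id2 values was not tested.

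Genes of natural killer and innate-like lymphocytes, cells that need Id2, were read beside it. Of 14 measured, 0 rose, 3 fell in Vav-SB and 11 did not pass, where 7.28% of all genes rose and 7.18% fell. The median difference of the 14 was -0.65, against 0.00 over all genes. Of the cytokine receptor chains, Il18r1 fell by 2.12 and Il23r fell by 3.01. Rora, a nuclear receptor of innate lymphoid cells, fell by 1.29 on the log2 scale (limma, adjusted p = 0.0211 for Il18r1, 0.0474 for Il23r and 0.0379 for Rora). Leaving out 1 tumour ended the call of Il23r in 11 of 14 fits and that of Rora in 9 (adjusted p as high as 0.0952 and 0.0788). The marker covariate ended all 3 calls at differences of -2.24 ± 1.43 for Il23r, -1.44 ± 0.59 for Rora and -1.62 ± 0.83 for Il18r1 (SE, limma, adjusted p = 0.409, 0.206 and 0.31). Il23r ran from 5.33 to 7.03 in Vav-SB, and in CD4-SB it was at 10.60 to 11.50 in replicates 1, 2, 5 and 6 and at 5.40 to 6.57 in replicates 3, 4 and 7. Of the 5 CD4-SB tumours that lay above every Vav-SB tumour in Id2, replicate 3 had a low Il23r level. The genes Tbx21 and Eomes, which encode T-box factors of natural killer cells, differed by -0.62 and -0.38 without passing (limma, adjusted p = 0.0717 and 0.263).

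Id3 overlapped widely between the models. It was at 7.41 in the lowest, 8.04 in the median and 8.82 in the highest Vav-SB tumour, against 6.59, 7.48 and 9.53 in CD4-SB tumours. CD4-SB replicate 4 (9.53) was the highest of all 14 tumours, and CD4-SB replicates 1, 2 and 5 (6.90, 6.59 and 7.05) lay below every Vav-SB tumour. The means were 8.04 ± 0.50 in Vav-SB and 7.60 ± 0.97 in CD4-SB (SD, n = 7 each), a difference of 0.45 (limma, 95% interval -0.36 to 1.25, adjusted p = 0.496). Without CD4-SB replicate 4 the difference was 0.77 and did not pass (limma, adjusted p = 0.0609). The 4 Id3 probe sets differed by 0.16 to 0.68, all toward Vav-SB, and 0 passed, nor did any 95% interval leave out 0. Of these, 4770510 had the highest and 5381172 the lowest difference.

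Id1 showed the smallest difference of the 5 genes. It was at 5.78 in the lowest, 5.99 in the median and 6.74 in the highest Vav-SB tumour, against 5.68, 6.08 and 6.65 in CD4-SB tumours. The groups overlapped over nearly their whole range. The means were 6.14 ± 0.34 in Vav-SB and 6.08 ± 0.32 in CD4-SB (SD, n = 7 each), a difference of 0.06 (limma, 95% interval -0.30 to 0.42, adjusted p = 0.861), whose sign turned under several settings. The level of Id1 was at or above that of 22.9% of genes. Of its 5 probe sets 0 passed and 0 had a 95% interval that left out 0, with differences from -0.16 (4315411) to 0.35 (4927022).

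The levels of pairs of these genes were compared within each model, 10 pairs in each of the 2 models. Of 20 relations, 2 had an unadjusted exact permutation p under 0.05 and 0 passed after adjustment. Tcf4 and Id2 went together in CD4-SB (r = 0.86, exact permutation p = 0.0149, adjusted 0.149, Spearman rho = 0.89, p = 0.0123, n = 7). Without the 2 tumours farthest from the median of Tcf4, r was 0.80 (exact permutation p = 0.142, n = 5). In Vav-SB the same pair had r = -0.57 (exact permutation p = 0.251, n = 7), which turned to 0.91 without the 2 tumours farthest from the median of Tcf4, replicate 2 among them. Id1 and Id3 went against each other in Vav-SB (r = -0.90, exact permutation p = 0.00615, adjusted 0.123, Spearman rho = -0.79, p = 0.048, n = 7) and had r = 0.13 in CD4-SB (exact permutation p = 0.754, n = 7). Without the 2 farthest tumours r in Vav-SB was -0.70 (exact permutation p = 0.208, n = 5). Id2 and Id3 had r = 0.34 in Vav-SB and -0.47 in CD4-SB (exact permutation p = 0.461 and 0.287, n = 7 each). Differences of r between the models were not tested.

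**Figure D3:**
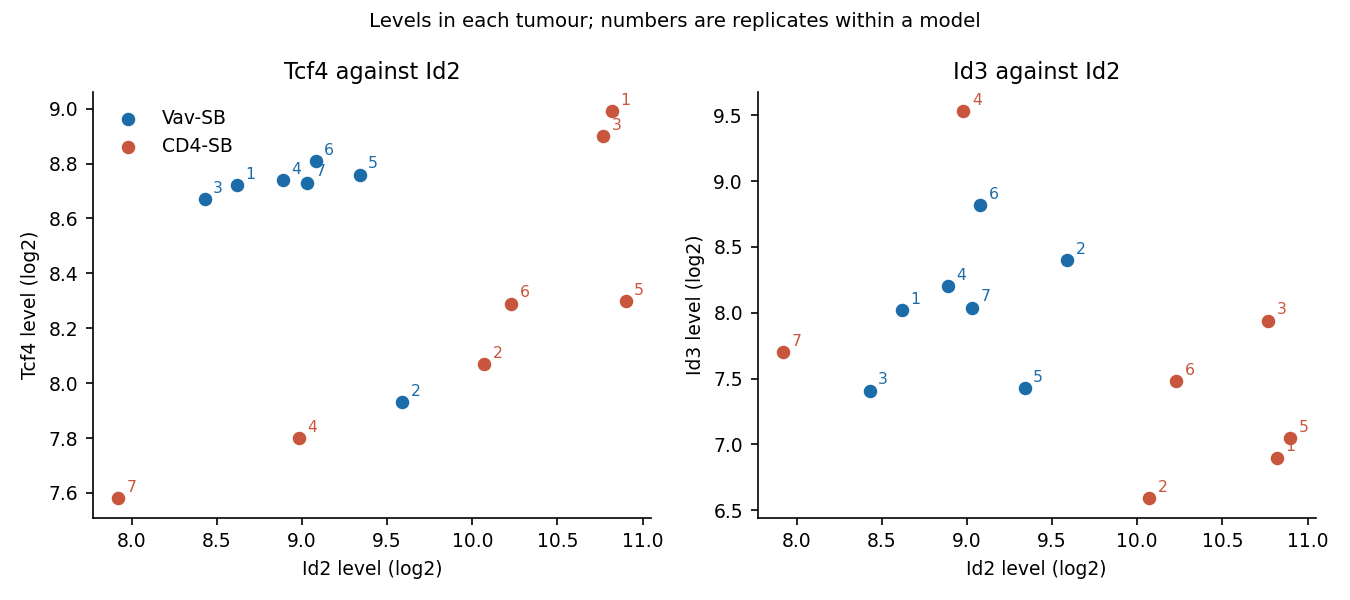
Level of Tcf4 (left) and Id3 (right) against that of Id2 in each tumour, all in log2, with replicate numbers beside the points. In CD4-SB the tumours low in Id2, replicates 4 and 7, are low in Tcf4, and replicate 4 is the highest in Id3 at 9.53.

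The genes whose levels followed each of the 5 most closely were sought among the genes above the median level. Over the 14 tumours Tcf12 was followed by Dntt (terminal transferase, r = 0.974), Dck (deoxycytidine kinase, 0.97) and Endou (an endoribonuclease, 0.969), which all separate the models. With the mean of each model subtracted its closest were Cd3eap (a subunit of RNA polymerase I, r = 0.907), Slc20a2 (a phosphate transporter, 0.841) and Tlk2 (a kinase, 0.833). Id2 was followed by Stk17b (a kinase of lymphocytes, r = 0.909), Stxbp3a (0.904) and Pdcd6ip (0.899), and after subtraction by Stk17b (0.925), Asxl2 (0.912) and Lpar6 (0.886). Stk17b fell in Vav-SB, with a mean of 9.90 ± 0.19 there, against 10.62 ± 0.43 in CD4-SB (SD, n = 7 each, limma, adjusted p = 0.0102). Its call ended with a median over probe sets and with the marker covariate, at differences of -0.50 and -0.37 (limma, adjusted p = 0.109 and 0.372).

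Tcf4 was followed by Slfn8 (r = 0.933), Hivep1 (0.903) and Acbd5 (0.87), and after subtraction by Slfn8 (0.92), Tbc1d8 (0.915) and Klf6 (0.914). Id3 was followed by Cxxc1 (r = 0.907), Cnpy2 (0.903) and Dnmt3a, a DNA methyltransferase gene (0.88), and after subtraction by Arl2 (0.934), Tmco4 (0.899) and Cxxc1 (0.898). Id1 was followed by Fas, a death receptor gene (r = 0.819), Hk1, a hexokinase gene (0.815) and 4930402H24Rik (0.803), and after subtraction by Ddx17 (0.87), 4930402H24Rik (0.861) and Cd4 (0.84). Each is the highest among the 7900 or 7901 genes searched, and it describes 14 tumours of 2 models.

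The other genes of the families were measured too. E2A, the best known E protein, is encoded by Tcf3, whose older symbol Tcfe2a heads 21 probe sets in the annotation. Tcfe2a was at 8.12 in the lowest, 8.28 in the median and 8.61 in the highest Vav-SB tumour, against 7.66, 7.99 and 8.41 in CD4-SB tumours. Of the CD4-SB tumours 6 lay below every Vav-SB tumour, and replicate 4 (8.41) lay among the Vav-SB tumours. The means were 8.33 ± 0.16 in Vav-SB and 7.99 ± 0.24 in CD4-SB (SD, n = 7 each), a 1.26-fold difference that did not pass (limma, adjusted p = 0.0547), and all 21 probe sets were higher in Vav-SB, with 0 passing and 9 with a 95% interval that left out 0. It passed under 6 of 23 alternatives, among them without CD4-SB replicate 4 (adjusted p = 0.0139). Probe sets annotated as Tcf3 in the old annotation may belong to Tcf7l1, which once carried that symbol, and were not read as E2A. Id4, the remaining Id gene, averaged 7.57 ± 0.09 in Vav-SB tumours, against 7.89 ± 0.30 in CD4-SB tumours (SD, n = 7 each, limma, adjusted p = 0.082). It passed under 4 alternatives, among them the fit without CD4-SB replicate 1 (adjusted p = 0.00319). Of its 6 probe sets 1, 5297718, differed by -1.57, and the other 5 by -0.34 to 0.29, so the gene mean rests largely on that probe set.

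Genes that E proteins are known to activate stood higher in Vav-SB in most cases. Of 11 measured, 7 rose and 1 fell, where 7.28% of all genes rose and 7.18% fell. The median difference of the 11 was 1.27, against 0.00 over all genes. The pre-T-cell receptor gene Ptcra ran from 8.48 to 9.77 in Vav-SB and from 7.51 to 8.08 in CD4-SB. Rag1, a recombinase subunit, ran from 9.66 to 11.36 in Vav-SB and from 5.52 to 8.0 in CD4-SB, where replicate 6 was the highest. Dntt ran from 10.13 to 11.95 in Vav-SB and from 5.06 to 6.20 in CD4-SB. Notch1 ran from 10.20 to 11.22 in Vav-SB and from 7.30 to 7.98 in CD4-SB, and Hes1, a repressor that Notch also induces, from 7.62 to 8.35 in Vav-SB and from 6.49 to 7.44 in CD4-SB. Rag2 and Cd4 rose by 3.38 and 1.27 (limma, adjusted p = 0.00225 and 0.0144), and the adjusted p of the other 5 were between 3.28e-09 and 0.000604. With the marker covariate Ptcra and Rag2 differed by 1.11 and 3.38 and no longer passed (limma, adjusted p = 0.0518 and 0.0647), while the SE of Rag2 was 0.92, against 0.61 without the covariate. With a single tumour per title number Cd4 did not pass (1.04, adjusted p = 0.089). Cdkn1a, the cell cycle inhibitor gene that E proteins induce in some cells and p53 induces in most, fell by 1.10 on the log2 scale (limma, adjusted p = 0.00709), and its difference under the marker covariate, -0.69, did not pass (adjusted p = 0.273). Foxo1, Gfi1 and Socs1 differed by 0.21, 0.07 and -0.11 and did not pass. The list was chosen with earlier results of these data known, so its count beside the share of all genes is a description and no test. These genes have other regulators too, and the part of E proteins in their levels was not tested.

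**Figure D4:**
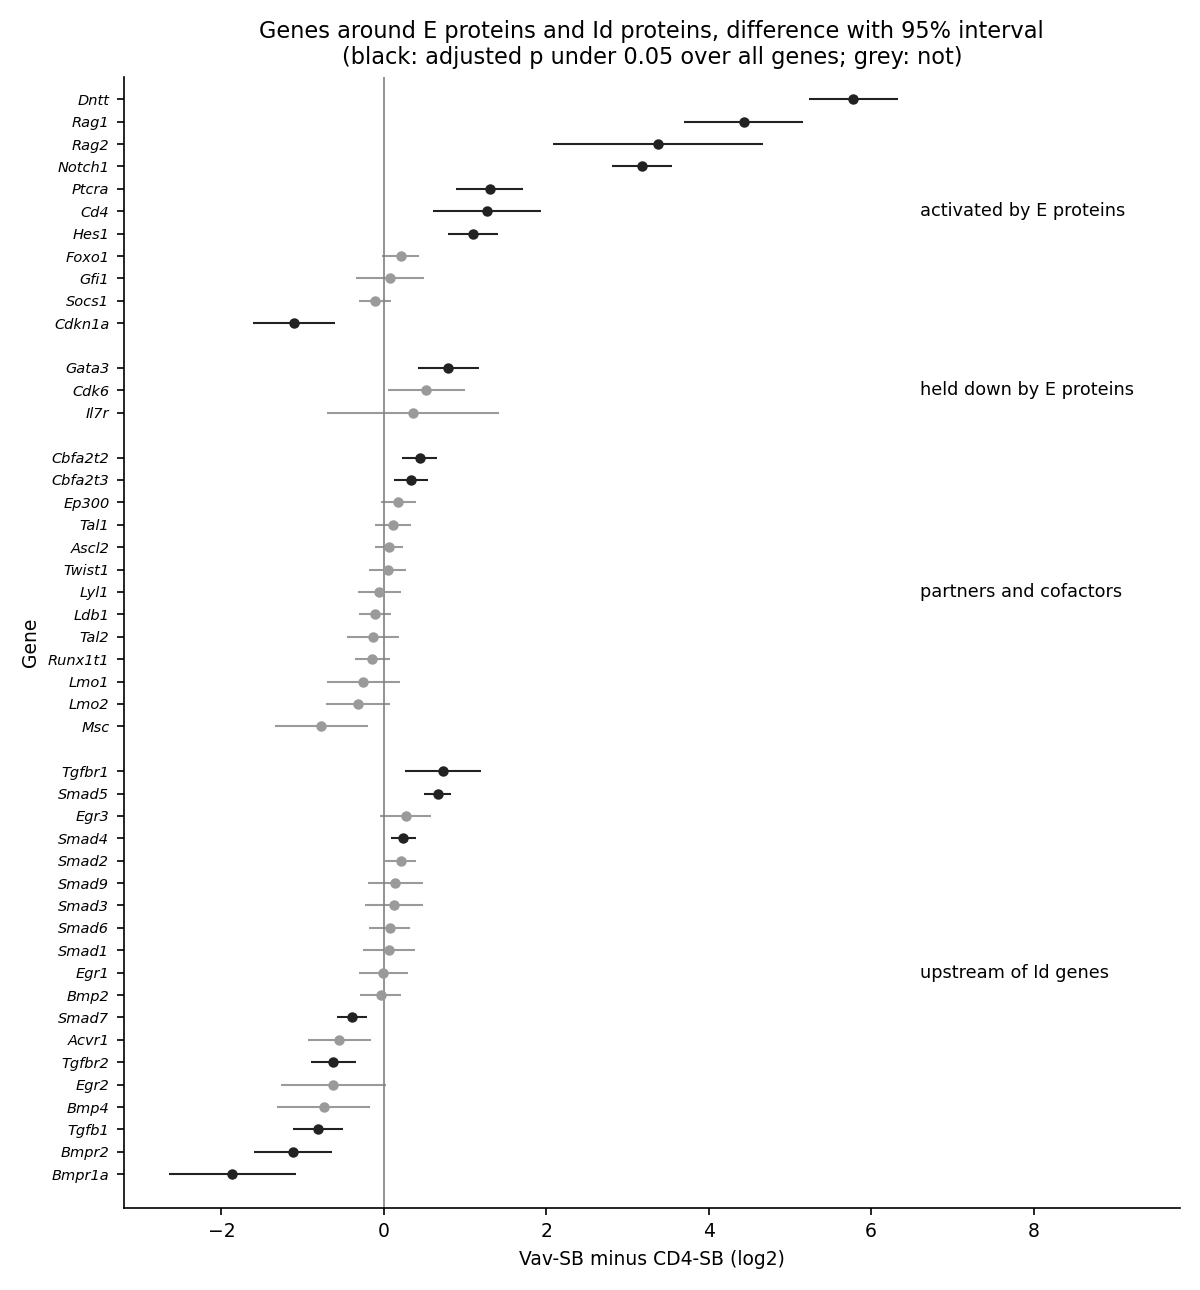
Difference of genes around the E and Id proteins (log2, Vav-SB minus CD4-SB) with 95% intervals, in 4 groups. Black points passed an adjusted p of 0.05 over all genes and grey ones did not. The groups were chosen with earlier results of these data known. Of genes activated by E proteins 7 of 11 lie to the right and passed, and of genes upstream of Id genes 3 rose and 5 fell. Of all genes 7.28% rose and 7.18% fell.

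Of 3 genes that E proteins are known to hold down in thymocytes, 1 rose and 0 fell, where 7.28% of all genes rose and 7.18% fell. Gata3, a T-lineage factor, averaged 9.75 in Vav-SB tumours, against 8.96 in CD4-SB tumours (limma, adjusted p = 0.00843). With the marker covariate its difference was 0.80, against 0.79 without it, with an SE of 0.27, against 0.18, and it did not pass (limma, adjusted p = 0.124). Cdk6, a cell cycle kinase gene, and Il7r, a cytokine receptor gene, differed by 0.52 and 0.36 (limma, adjusted p = 0.136 and 0.703). Of 13 measured partners and cofactors, 2 rose and 0 fell, where 14.5% of all genes passed in either direction, with a median difference of -0.06. Both encode corepressors of the ETO family, which bind E proteins: Cbfa2t2 (0.44, limma, adjusted p = 0.00954) and Cbfa2t3 (0.34, limma, adjusted p = 0.0325). The call of Cbfa2t2 ended under the marker covariate at a difference of 0.52 ± 0.15 (SE, adjusted p = 0.0727), and that of Cbfa2t3 under 11 of 23 alternatives, 7 of which leave out 1 tumour (adjusted p as high as 0.0685 among those). Tal1 and Lyl1, helix-loop-helix oncogenes that pair with E proteins, differed by 0.11 and -0.06, and Lmo2, which bridges such complexes, by -0.32 (limma, adjusted p = 0.561, 0.812 and 0.294). Lmo2 passed without Vav-SB replicate 3 (-0.47, adjusted p = 0.0273).

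Upstream of the Id genes lie the BMP and TGF-beta pathways and the Egr factors of receptor signalling. Of 19 such genes 3 rose and 5 fell in Vav-SB, where 7.28% of all genes rose and 7.18% fell. The median difference of the 19 was 0.00. The BMP receptor gene Bmpr1a ran from 5.59 to 6.71 in Vav-SB and from 6.70 to 9.85 in CD4-SB, where replicate 2 was the highest. It fell by 1.87 and its partner Bmpr2 by 1.12 on the log2 scale (limma, adjusted p = 0.00395 and 0.00496). Tgfb1, the cytokine gene, Tgfbr2, its receptor gene, and Smad7, an inhibitor of the pathway, fell by 0.81, 0.62 and 0.39 (limma, adjusted p = 0.00202, 0.00583 and 0.00832). Smad5, a transducer of BMP signals, rose by 0.66, Tgfbr1 by 0.73 and Smad4 by 0.24 (limma, adjusted p = 6.83e-05, 0.0359 and 0.0405). With the marker covariate Smad5 passed at 0.54 (adjusted p = 0.0118) and the other 7 did not. Under it Bmpr1a, Tgfbr1 and Smad4 were farther from 0, at -2.05, 1.08 and 0.34 (limma, adjusted p = 0.0602, 0.0733 and 0.0897). Bmpr2, Tgfb1, Tgfbr2 and Smad7 were closer to 0, at -0.58, -0.52, -0.32 and -0.34 (limma, adjusted p = 0.284, 0.152, 0.301 and 0.169). The calls of Tgfbr1 and Smad4 also ended under 11 and 13 further alternatives, 9 and 10 of which leave out 1 tumour (adjusted p as high as 0.078 and 0.0809 among those). Egr1, Egr2 and Egr3, which induce Id3 after T-cell receptor signals, differed by -0.01, -0.62 and 0.27 and did not pass (limma, adjusted p = 0.987, 0.2 and 0.255). Egr2 passed where each title number kept a single tumour (-1.10, limma, adjusted p = 0.0207), and its sign turned with the marker covariate.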

How the data were processed

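Total RNA of frozen tumours was amplified into cDNA and put on mouse exon arrays, per the labels' protocols. The authors deposited normalised values per probe set, which were read here as log2 values. The tools are Partek and RMA, per the submitters' processing notes, which give no version. The sources used here state neither the background step nor the filters nor the log base, and the range of 2.03 to 14.03 is that of log2 RMA values. Of 194293 probe sets 179496 had 1 gene symbol, 1328 several and 13469 none in the platform annotation. Symbols were updated through a table of assembly GRCm38.p6 (2014 replaced, 25 kept because the newer symbol was in use, among them Tcfe2a). Tumours were grouped by their strain label, with replicate numbers given by accession order.

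Genes, probe sets and probe sets against their gene (diffSplice, genes with at least 3 probe sets) were tested with limma 3.58.1 in R 4.3.3, at an adjusted p of 0.05 over the whole table. Exact tests used Python 3.11.15. Tested on simulated data in which a known part of 15803 genes was changed, 60%, 84%, 100% and 98% of genes changed by 0.5, 1, 2 and 4 (log2) were recovered, with 13 calls among unchanged genes. That part was smaller than the 14.5% of genes that passed in the tumours, and all its changes were upward. Each simulated gene had the same spread in both models, unlike Id2, so these rates need not hold for the tumours. For probe sets of 14165 genes, diffSplice recovered 53% and 95% of changes of 1 and 2, with 328 calls in unchanged genes. With a spread per probe set, an alternative added after seeing the data, 33% and 89% were recovered, with 6 such calls. In this simulation each probe set kept its own spread and varied independently of the others. There diffSplice made more calls in unchanged genes than the alternative. The cause was not tested, and calls made both ways are given. The number of arrays limits the precision.

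The genes described and the lists were chosen with earlier results of these data known. The text names all 5 genes, up to 6 members per other list past the threshold with the smallest adjusted p (or the 2 largest differences), 11 genes of prior interest, and the 3 genes most correlated with each. Further list members were named after their values were seen. Some entries of the lists are not reported here.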

Additional observations from a re-analysis of the deposited data

Results flagged for a closer look

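In 32 groups of 7 tumours (7 genes and 9 marker levels in each model), 3 had a tumour far from the rest by Dixon's test, where chance gives about 1 in 20. Tcf4 was at 7.93 in Vav-SB replicate 2, with the other 6 Vav-SB tumours between 8.67 and 8.81. Without it the Tcf4 difference was 0.47 (limma, adjusted p = 0.166). Id4 was at 7.27 in CD4-SB replicate 1, with the other 6 between 7.82 and 8.15. The mean of the myeloid markers was 9.54 in CD4-SB replicate 1, with the other 6 between 8.68 and 9.05.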

How the results depend on the processing

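Differences of the genes with a test named in the text were recomputed under 23 alternatives (9 settings and each of the 14 tumours left out), with fewer where a filter removed a gene, offsets of probe sets under 17 or 18, and correlations under 2. Tcf12 passed under all it was tested in (differences without 1 tumour from 1.56 to 1.67). Tcf4 passed with the marker covariate alone (0.95). Id2 passed with 1 tumour per title number (-1.37) and without CD4-SB replicate 7, and ran from -1.30 to -0.80 without 1 tumour. Id3 passed under none and ran from 0.28 to 0.77 without 1 tumour. Id1 turned sign with a median over probe sets (-0.135), with 1 tumour per title number (-0.141) and without single tumours (-0.042 to 0.155). With the marker covariate 332 genes were higher and 150 lower in Vav-SB, against 1150 and 1134 without it, in a fit with 1 more term. Probe sets apart from their gene numbered 1306 with that covariate and 1348 among bright probe sets alone, against 2356. With the covariate Itgax (0.087), H2-Aa (0.303) and Dcn (0.093), which are among its markers, turned sign in the gene fit, as did Tal1 (-0.054), Gfi1 (-0.384), Il17a (0.142), Lyl1 (0.145), Lmo2 (0.026), Egr2 (0.297) and the offset of Id2 probe set 4731791 (0.195). The cause was not tested. Tbx21 passed under 2 alternatives, Foxo1 under 1 and Cdk6 under 1. Without single tumours Gfi1 ran from -0.03 to 0.199, Lyl1 from -0.146 to 0.002 and Egr1 from -0.093 to 0.061, and with the title number as a random block Egr1 was at 0.002. The correlation of Tcf4 with Id2 in Vav-SB turned to 0.18 by ranks and to 0.91 without 2 tumours. No paired analysis was possible because the replicate numbers follow accession order and pair no Vav-SB with a CD4-SB tumour. Signal over background could not be computed, since the values hold no background level.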

Other observations

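Of 6 measured genes of gamma-delta T cells that make the cytokine IL-17, 2 rose in Vav-SB and 0 fell. Il23r, Rora and Il18r1, which fell, were counted with the innate-like genes and not here. Of all genes 7.28% rose and 7.18% fell. The median difference of the 6 was -0.74, against 0.00 over all genes. Sox13, a factor of this lineage, was 1.48-fold and Cd163l1, a scavenger receptor gene, 3.73-fold higher in Vav-SB (limma, adjusted p = 0.00269 and 0.0161). Cd163l1 ran from 6.99 to 10.77 in Vav-SB and from 6.88 to 8.41 in CD4-SB, so the models overlapped. Ccr6 and Il17a differed by -2.12 and -1.26 and did not pass (limma, adjusted p = 0.0501 and 0.255), though Ccr6 passed under 8 of 22 alternatives. With the marker covariate Sox13 and Cd163l1 differed by 0.43 and 1.24 and did not pass (limma, adjusted p = 0.13 and 0.345). Sox13 also did not pass with a median over probe sets (0.38, limma, adjusted p = 0.137) or with bright probe sets only (0.23, limma, adjusted p = 0.125).

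Within Id4, probe set 5297718 averaged 6.75 ± 0.68 in Vav-SB tumours, against 8.32 ± 1.17 in CD4-SB tumours (SD, n = 7 each, limma over all probe sets, adjusted p = 0.0453), while the other 5 differed by -0.34 to 0.29. It stood 1.5 below the rest of its gene by diffSplice (adjusted p = 0.000225), and with a spread of its own it did not pass (adjusted p = 0.114). This probe set was named after its values were seen.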
